A study of Mus musculus with 3 samples.

Results

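The 10 keratin genes examined here are Krt7, Krt8, Krt18, Krt19 and Krt20 of simple epithelia, Krt5, Krt14, Krt15 and Krt17 of basal epithelial cells, and Krt80. They were taken by symbol from the 24523 genes of the deposited table. The groups were the Kdm1a knock-out (n = 2 libraries, from cells infected with the lentiviral CRISPR vector carrying guide Kdm1a-sg1 or Kdm1a-sg2) and the control (n = 1 library, Crispr-V2, the vector with no guide named). All 3 libraries came from mouse small cell lung cancer (SCLC) line #3, infected and then kept under puromycin for at least 1 week, so each group is the same single line and each guide stands for 1 infected population. Whether the populations were clonal is not given in the sources used here. Kdm1a encodes LSD1, a histone demethylase of CoREST corepressor complexes. Nothing in the labels shows independent cultures beyond the separate infections. The p-values therefore do not measure a spread between independent cultures. For each gene, the spread between the 2 guide libraries (1 residual degree of freedom) was pooled with a spread estimated over all genes tested (11.5 prior degrees of freedom). The p-values and SEs thus rest mostly on the latter and do not show how far the 2 guides differ for a gene. The control, with 1 library, was taken to vary as the guide libraries do.

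Keratins are the intermediate filament proteins of epithelial cells. A filament is built from pairs of a type I and a type II chain, so that an epithelial cell makes at least 1 chain of each type. Krt8 (type II) pairs with Krt18 (type I) in simple epithelia, where Krt7 (type II) and Krt19 (type I) are often added, and Krt5 (type II) pairs with Krt14 (type I) in basal cells such as those of the airway. In the mouse the type I genes lie together on chromosome 11 and the type II genes on chromosome 15, with Krt18 as the type I gene that sits beside the type II cluster.

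The libraries held 44667861 counts (sg1), 51066078 (sg2) and 43424212 (control). Kdm1a had 3950 and 5716 counts in the sg1 and sg2 libraries, against 11468 in the control. This corresponds to 100.3 ± 18.0 CPM (SD, n = 2; counts scaled to the normalized library total) in the knock-out and 264 CPM in the control, and the difference missed the threshold (log2 fold change -1.40, SE 0.404, adjusted p = 0.0537 in edgeR's quasi-likelihood test). It passed in 3 of 7 other analyses, with an adjusted p from 0.0166 to 0.127 over all 7. The mRNA does not measure the protein, and an edited transcript need not be lost.

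Of the 10 keratins, 7 were tested and 3 had 0 counts in every library. Krt19 rose in the knock-out, and it was the 1 member called by edgeR's quasi-likelihood test, that is, with an adjusted p under 0.05. The background in the same comparison was 6.33% of 15936 genes called higher, 1.7% called lower and 8.03% in either direction. Krt7, Krt8 and Krt80 had lower values with both guides but did not pass, and 0 members were called lower (Krt8 was the 1 lower member with an unadjusted p under 0.05, and the DESeq2 Wald test called 1 lower, Krt8). Krt18 was level between the groups to within a small fraction of its standard error. Krt14 and Krt17 gave low counts with both guides and 0 in the control.

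**Figure D1:**
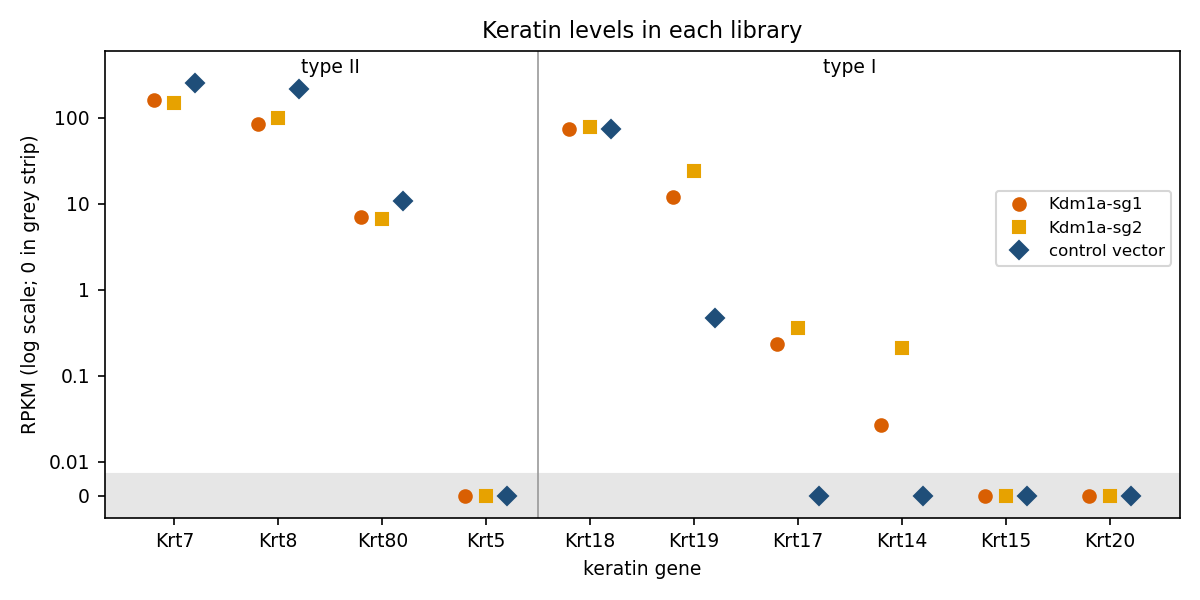
RPKM of each keratin in the Kdm1a-sg1, Kdm1a-sg2 and control libraries, 1 point per library, on a log scale with 0 drawn in the grey strip; type II genes are on the left and type I genes on the right. The control point lies above both guide points for Krt7, Krt8 and Krt80, on them for Krt18, and below them for Krt19, Krt17 and Krt14.

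The type II chains of simple epithelia were the most abundant keratins. Krt7, a type II keratin of ducts, airways and other simple epithelia (chromosome 15, 101412403 to 101427806, GRCm38), had 161.7 and 150.0 RPKM (a read density per length of gene and depth of library, deposited by the authors) with sg1 and sg2, against 254.8 RPKM in the control. The counts behind these levels were 11560 and 12281 with the guides and 17702 in the control. Both guide libraries lay below the control by more than counting error: the ratio to the control was 0.627 for sg1 (95% exact counting interval 0.613 to 0.642) and 0.595 for sg2 (0.581 to 0.609). The log2 fold change of -0.71 (SE 0.393) did not pass edgeR's test (adjusted p = 0.392). In a bulk sample, fewer cells making a transcript and less of it per cell cannot be told apart.

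Krt8, the type II chain that simple epithelial cells make first in development (chromosome 15, 101996711 to 102004342), had 84.6 and 98.3 RPKM with sg1 and sg2, against 213 RPKM in the control. It had 6886 and 9158 counts with the guides and 16836 in the control. The ratio to the control was 0.393 for sg1 (0.382 to 0.404) and 0.466 for sg2 (0.455 to 0.479), the lowest among the 5 members with a control count. The log2 fold change was -1.22 (SE 0.396) and missed the threshold (adjusted p = 0.0901 with edgeR). It passed in 2 of 7 other analyses, and the adjusted p ranged from 0.0462 to 0.193 over all 7.

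Krt80, a type II keratin found in many kinds of epithelium (chromosome 15, 101348315 to 101370162), had 6.92 and 6.61 RPKM with sg1 and sg2 and 10.8 RPKM in the control. Its ratios of 0.633 and 0.618 to the control were close to those of Krt7, and the log2 fold change of -0.68 (SE 0.495) did not pass (adjusted p = 0.570 with edgeR). The authors' deposited table of down genes lists Krt7 with RPKM ratios of 0.635 and 0.589 for sg1 and sg2 over the control. The authors' deposited table gives Krt8 ratios of 0.397 and 0.462 and Krt80 ratios of 0.640 and 0.612. That list was made by a fold rule on 1 library per guide and has no test in it.

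Krt18, the usual type I partner of Krt8 (chromosome 15, 102028216 to 102032026), had 74.7 and 78.9 RPKM with sg1 and sg2 and 73.6 RPKM in the control. It had 4711 and 5700 counts with the guides and 4515 in the control. The ratio to the control was 1.00 for sg1 (0.962 to 1.04) and 1.08 for sg2 (1.04 to 1.13). The log2 fold change was 0.06 (SE 0.414, adjusted p = 0.973 with edgeR), which with this SE does not show that the level was unchanged. The 23.9 kb between Krt8 and Krt18 hold no other gene of the deposited table.

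**Figure D2:**
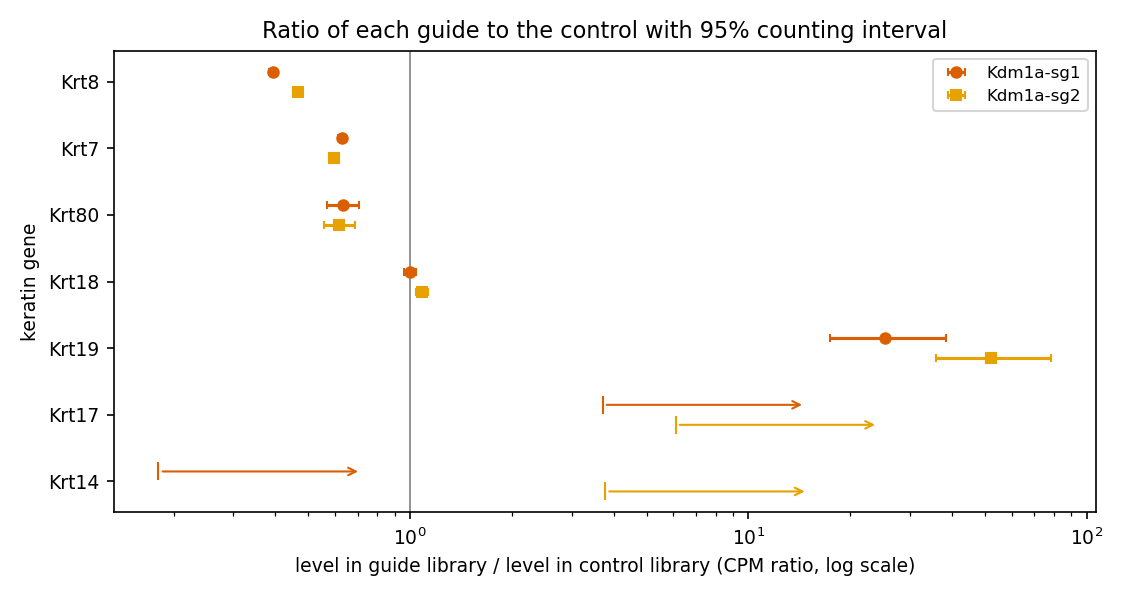
Level of each keratin in a guide library over its level in the control library (CPM ratio, log axis), with 95% exact counting intervals; for Krt17 and Krt14, which had 0 control counts, the tick marks the lower end of the interval and the arrow an open upper end. Krt8 and Krt7 lie below 1 with both guides, Krt18 at 1.00 and 1.08, and Krt19 at 25.4 and 52.1.

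The keratin values were also set beside those of their chromosomes. Over the 609 tested genes of chromosome 15, which carries Krt7, Krt8, Krt80 and Krt18, the median log2 ratio to the control was 0.34 with sg1 and 0.32 with sg2, while over all 15936 tested genes it was 0.02 and 0.05. Of those 609 genes, 39 were called higher and 7 lower, near the background of 6.33% and 1.7% over all genes tested. Over the 1293 tested genes of chromosome 11, which carries Krt19, the median was 0.07 with sg1 and 0.18 with sg2. With the chromosome's median subtracted, the log2 fold changes were -1.05 for Krt7, -1.55 for Krt8, -1.01 for Krt80 and -0.28 for Krt18, so the sign of Krt18 turned. The difference between the chromosome medians and its part in the keratin values were not tested.

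The promoter windows of Krt7, Krt8 and Krt18 are shown because these were the most abundant keratins and the neighbours Krt8 and Krt18 had different ratios; they were chosen after their values were seen. Each window runs from 250 bases before to 50 bases after the RefSeq start (GRCm38.p6), 5′ to 3′ on the gene's strand, and windows of 6 of the 10 keratins were matched by symbol. Capitals mark matches to 5 motifs searched on both strands: TATAAA (the TATA box), GGGCGG (bound by Sp factors), TGANTCA (bound by AP-1), GGAATG (bound by TEAD factors) and CACCTG (an E-box bound by Snail and Zeb factors).
Krt7, chr15:101412153-101412452, plus strand: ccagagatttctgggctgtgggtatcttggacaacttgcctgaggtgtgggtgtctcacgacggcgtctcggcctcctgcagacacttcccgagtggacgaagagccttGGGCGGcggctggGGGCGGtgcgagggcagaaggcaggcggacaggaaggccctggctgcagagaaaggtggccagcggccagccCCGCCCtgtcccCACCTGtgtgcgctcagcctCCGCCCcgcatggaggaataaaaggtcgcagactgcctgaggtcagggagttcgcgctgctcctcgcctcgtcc
Krt8, chr15:102004293-102004592, minus strand: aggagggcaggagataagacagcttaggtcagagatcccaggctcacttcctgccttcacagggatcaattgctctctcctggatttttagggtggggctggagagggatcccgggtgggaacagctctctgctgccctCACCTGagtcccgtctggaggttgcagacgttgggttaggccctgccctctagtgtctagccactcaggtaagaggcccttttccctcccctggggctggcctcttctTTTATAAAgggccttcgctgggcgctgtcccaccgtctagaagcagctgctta
Krt18, chr15:102027966-102028265, plus strand: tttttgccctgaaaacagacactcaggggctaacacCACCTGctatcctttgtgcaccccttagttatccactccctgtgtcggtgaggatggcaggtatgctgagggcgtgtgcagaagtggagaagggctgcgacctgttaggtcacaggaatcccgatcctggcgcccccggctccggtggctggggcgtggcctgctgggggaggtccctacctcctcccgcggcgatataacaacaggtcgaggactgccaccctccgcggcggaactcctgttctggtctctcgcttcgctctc

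The Krt7 window held 4 matches to GGGCGG, which 35.7% of the 32851 RefSeq windows of this length contain. The Krt8 window held TATAAA, found in 13.6% of all windows, on both strands in 1 overlapping run. The 2 matches began at positions -3 and -1, so the run spans the RefSeq start itself, and whether it acts as a TATA box was not tested. The Krt18 window did not hold that word. All 3 windows held 1 match to CACCTG, present in 20.2% of all windows. TGANTCA (7.81% of windows) and GGAATG (14.7% of windows) were in none of the 3. A match is a description of the letters and not a bound site, and no match says only that these letters are not in the window.

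Krt19 showed the opposite direction to the abundant type II chains. Krt19, a short type I keratin of ducts and luminal airway cells that lacks the usual tail domain (chromosome 11, 100140810 to 100145926), had 11.9 and 24.0 RPKM with sg1 and sg2, against 0.465 RPKM in the control. It had 739 and 1700 counts with the guides and 28 in the control, so both guide libraries lay far above the control. The mean level was 25.0 ± 12.2 CPM in the knock-out and 0.646 CPM in the control, 38.7-fold higher. The log2 fold change was 5.27 (SE 0.758, adjusted p = 0.000726 with edgeR). The call held in 6 of 7 other analyses and was lost with limma-trend on log2(RPKM + 1), where the adjusted p was 0.0676; over all 7 it ranged from 3.5e-13 to 0.0676. The sg2 library held 2.05 times the level of the sg1 library (counting interval 1.88 to 2.24), a comparison of 2 single libraries that does not show a difference between the guides. The ratios to the control were 25.4 (17.4 to 38.4) for sg1 and 52.1 (35.9 to 78.6) for sg2. The authors' deposited table of up genes lists Krt19, with RPKM values whose ratios to the control are 25.6 for sg1 and 51.5 for sg2. By RPKM, Krt19 ranked 6644 with sg1 and 3932 with sg2 among all genes, against 12952 in the control.

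**Figure D3:**
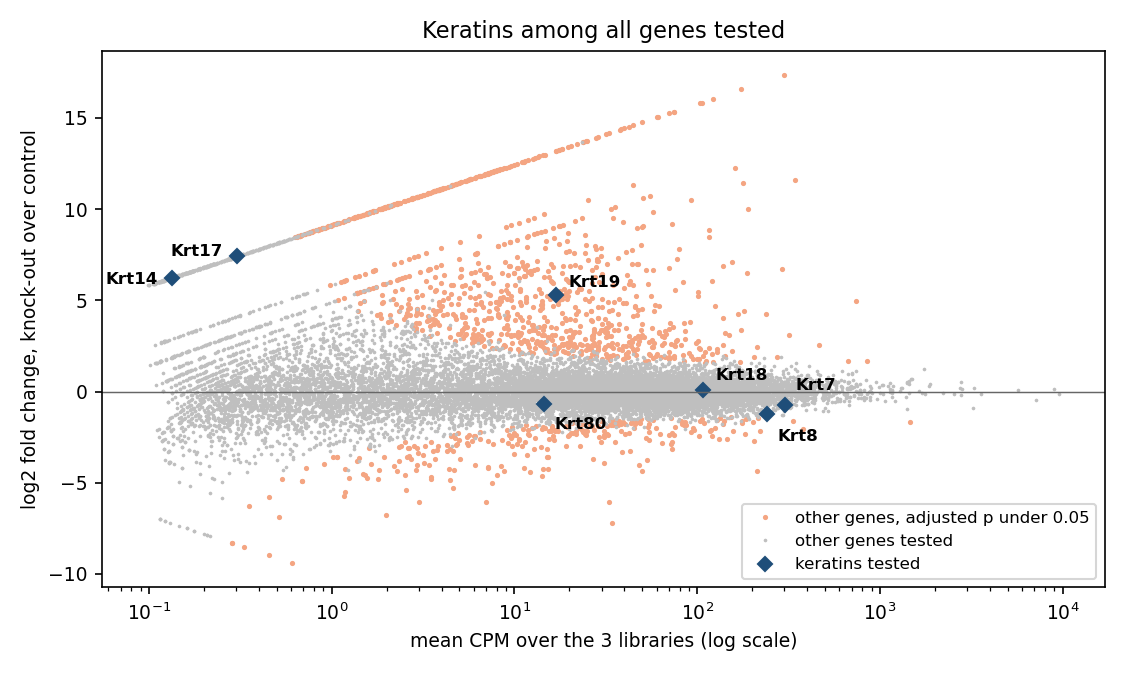
Log2 fold change of the knock-out over the control against mean CPM over the 3 libraries (log axis) for all 15936 genes tested; orange points passed edgeR's test, grey points did not, and blue diamonds are the 7 keratins tested. Krt19 lies among the called genes at 5.27, Krt8 at -1.22 and Krt7 at -0.71 lie among the uncalled ones, and Krt14 and Krt17 lie on the edge formed by genes with 0 control counts.

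Krt20, a type I keratin of intestine, urothelium and Merkel cells, had 0 counts in all 3 libraries. At a count of 0 the true level may still be as high as 3 counts, or 0.0665, 0.0593 and 0.0692 CPM in sg1, sg2 and the control. These floors and the counting intervals describe counting error alone, because the reads carried no molecular identifiers and several may come from 1 molecule.

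The basal keratins were at or near the detection limit. Krt5, the type II chain of basal cells, and Krt15, a type I chain of basal and progenitor cells, had 0 counts in all 3 libraries. Krt17, a type I chain of basal and injured epithelium, had 16 and 28 counts with sg1 and sg2 (0.235 and 0.359 RPKM) and 0 in the control. It averaged 0.454 ± 0.141 CPM in the knock-out, 6.56 times the floor of 0.0692 CPM that 3 counts give in the control. Krt17 missed the threshold (adjusted p = 0.145 with edgeR). Krt14, the partner of Krt5 in basal cells, had 2 and 18 counts with sg1 and sg2 (0.0267 and 0.210 RPKM) and 0 in the control (adjusted p = 0.390). Its mean of 0.20 ± 0.22 CPM was 2.89 times that floor, but the sg1 library alone lay below it. Krt14 and Krt17 entered the test only through the guide libraries, so their direction was fixed by the filter on low counts. Krt14, Krt16 and Krt17 are close relatives whose reads could be split between them; Krt16, which is no member and is named after its values were seen, had 4 and 22 counts with the guides and 0 in the control.

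Markers of basal cells beyond the keratins gave a mixed picture. Trp63, the master factor of basal cells, had 0 and 9 counts with sg1 and sg2 and 0 in the control, and the desmosomal cadherin Dsg3 had 0 in all 3 libraries. Of 11 basal markers, which include Krt5, Krt14, Krt15 and Krt17, 6 were tested and 2 rose, the neurotrophin receptor Ngfr (40 and 68 counts with the guides, 0 in the control) and the hemidesmosome integrin Itgb4 (304 and 416, against 19). Like Krt14 and Krt17, Ngfr was tested only because of its guide counts, which fixed its direction. Over all genes tested, 6.33% were called higher. The summed level of the list was 166 and 67.2 CPM with sg1 and sg2 and 119.7 CPM in the control, and most of it was the integrin subunit Itga6. Of 10 squamous markers 2 were tested and 0 passed (0 with an unadjusted p under 0.05), and the summed level was 6.29 and 5.97 CPM, against 5.0 CPM.

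The type I neighbours of Krt19 did not share its level. Krt15, which had 0 counts throughout, lies 4.86 kb from Krt19 with no gene of the table between them. Krt14 lies 57.2 kb and Krt17 110.3 kb away on the other side, with Krt9 (0 counts in all libraries) nearest to Krt19 on that side.

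**Figure D4:**
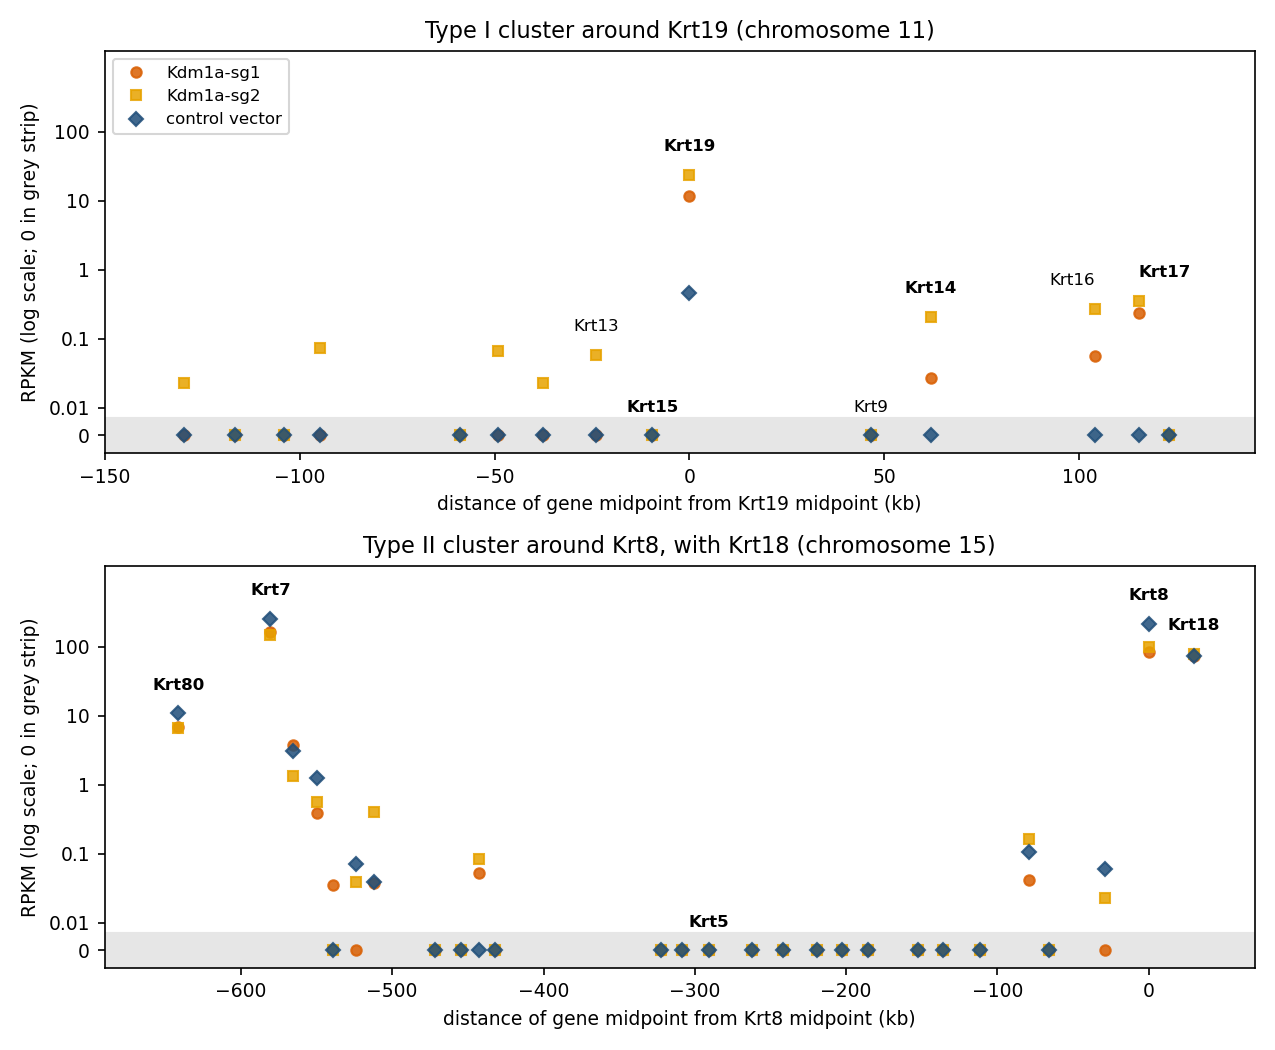
RPKM of the keratin genes of chromosome 11 around Krt19 and of chromosome 15 around Krt8, against the distance between gene midpoints in kb, with 1 point per library on a log scale and 0 in the grey strip; members are labelled in bold, and Krt20 lies outside the upper panel. Krt19 stands at 11.9 and 24.0 RPKM in the guide libraries beside Krt15 at 0, and the Krt18 points overlap beside Krt8, whose guide points lie below its control point.

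Summed over the members, keratin RNA was lower in the knock-out and its balance between the chain types differed. The 4 type II members summed to 253 and 255 RPKM with sg1 and sg2, against 479 RPKM in the control. The 6 type I members summed to 86.8 and 103.4 RPKM with the guides and 74.1 RPKM in the control. Type II chains therefore outweighed type I chains by 2.92 and 2.47 in the guide libraries, against 6.46 in the control. These sums were not tested.

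Within the sums, the members' shares shifted. Krt19 made up 13.7% and 23.2% of the type I RPKM with sg1 and sg2, against 0.627% in the control, where Krt18 was 99.4%. Krt8 made up 33.4% and 38.6% of the type II RPKM with the guides and 44.5% in the control. The Krt8 level was 1.13 (counting interval 1.09 to 1.18) and 1.25 (1.21 to 1.29) times that of Krt18 with sg1 and sg2, against 2.89 times (2.80 to 2.99) in the control. Krt7 exceeded Krt8 by 1.91 and 1.53 times with the guides and by 1.20 times in the control. The order of levels also differed: Krt19 lay above Krt80 in both guide libraries (11.9 and 24.0 against 6.92 and 6.61 RPKM), while in the control Krt80 lay above Krt19.

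**Figure D5:**
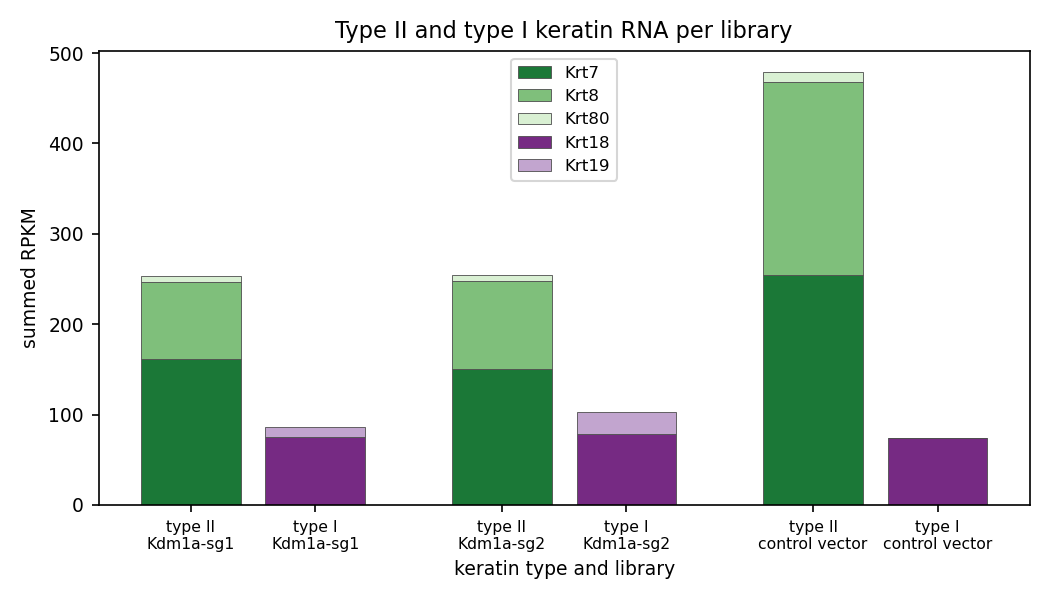
Summed RPKM of type II (Krt7, Krt8, Krt80) and type I (Krt18, Krt19) keratins in the Kdm1a-sg1, Kdm1a-sg2 and control libraries, stacked by gene; Krt14 and Krt17, below 0.4 RPKM in every library, and the genes at 0 are not drawn. The type II bars reach 253 and 255 RPKM with the guides and 479 RPKM in the control, and the Krt19 segment is visible only with the guides.

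The other keratins of the genome were hardly detected in any library. Of 44 further keratin genes, 9 and 18 had a count with sg1 and sg2 and 7 in the control, and together they summed to 5.99 and 5.17 RPKM, against 6.55 RPKM in the control. Of the 6 tested, 0 passed edgeR's test (0 had an unadjusted p under 0.05, and 0 passed in any other analysis), and the median log2 fold change was -0.09 beside 0.06 over all genes tested. Krt87 had 3.72 and 1.34 RPKM with sg1 and sg2 and 3.04 in the control. Krt10, a type I keratin of the upper epidermis, had 1.61 and 1.99 RPKM with the guides and 1.97 in the control. Krt88 had 0.393 and 0.558 RPKM with the guides and 1.26 in the control.

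Proteins that tie keratin filaments to desmosomes and other junctions were examined next. Of 17 listed linkers and filament regulators, all of them tested, 1 rose and 1 fell, and the median log2 fold change was 0.02. The background over all genes tested was 6.33% called higher and 1.7% called lower. Desmoplakin, encoded by Dsp, anchors keratins at desmosomes; it fell to 134 ± 16.9 CPM in the knock-out, against 373 CPM in the control (log2 fold change -1.47, adjusted p = 0.0387 with edgeR). Pkp1, a desmosomal plakophilin, rose to 75.1 ± 17.3 CPM, against 21.3 CPM in the control (log2 fold change 1.82, adjusted p = 0.0357). In 4 of 7 other analyses Dsp did not pass (adjusted p from 0.00891 to 0.131), nor did Pkp1 in 3 of 7 (0.00277 to 0.147).

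Transcription factors of epithelial and keratin genes were examined too. Of 21 listed factors 20 were tested, 1 rose and 1 fell, beside the same background, 18 did not pass, and the median log2 fold change was 0.19. Tfap2a, an AP-2 factor of surface epithelium, rose to 22.7 ± 12.8 CPM in the knock-out, against 2.63 CPM in the control (log2 fold change 3.11, adjusted p = 0.0130 with edgeR). Cdx2, a homeobox factor of intestinal epithelium, fell to 20.0 ± 12.5 CPM, against 179 CPM in the control (log2 fold change -3.15, adjusted p = 0.00175). The call of Tfap2a was lost in 2 of 7 other analyses (adjusted p from 4.78e-05 to 0.182) and that of Cdx2 in 1 of 7 (7.16e-09 to 0.0757).

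Among 14 other intermediate filament genes 11 were tested, 2 rose and 0 fell with edgeR (1 lower gene, Ina, had an unadjusted p under 0.05, and 0 were called lower in any other analysis). Vim, the mesenchymal vimentin, had 142 and 342 RPKM with sg1 and sg2 and was listed at 0 in the control (adjusted p = 2.05e-05 with edgeR), so its direction too was fixed by the filter. The guide libraries thus held vimentin beside Krt7 at 161.7 and 150.0 RPKM, on the same per-length scale. Nes, which encodes nestin of progenitor cells, rose to 122 ± 71.4 CPM, against 8.90 CPM in the control (log2 fold change 3.78, adjusted p = 0.00223); its call was lost in 1 of 7 other analyses (adjusted p from 2.21e-09 to 0.0909). The median log2 fold change of the list was 1.23, beside 0.06 over all genes tested, of which 6.33% were called higher and 1.7% lower.

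The labelled cell type was compared with its markers, and markers of other cells were set beside the keratins. The background for the counts below was 6.33% of all genes tested called higher and 1.7% called lower. Of 9 neuroendocrine markers, all tested and all with counts in every library, 1 rose and 2 fell, and their summed level was 2933 and 2072 CPM with sg1 and sg2, against 4249 CPM in the control. Of 10 simple epithelial markers, which include Krt7, Krt8, Krt18 and Krt19, 1 rose (Krt19) and 0 fell with edgeR (2 lower genes, Krt8 and Ocln, had an unadjusted p under 0.05), at 2058 and 1937 CPM with the guides and 2403 CPM in the control. Of 10 alveolar and club markers 9 were tested, 3 rose (Sftpb, Sftpa1 and Aqp5) and 1 fell (Cyp2f2), at 71.8 and 98.0 CPM, against 7.75 CPM. Sftpa1 had 141 and 66 counts with sg1 and sg2 and 0 in the control, and Cyp2f2 had 0, 0 and 37. Each was tested only because of the group with counts, which fixed its direction. Sftpb had 1166 and 910 counts with the guides and 4 in the control, and its direction was fixed in the same way. Of 8 fibroblast markers 7 were tested, 4 rose (Col1a1, Col3a1, Pdgfra and Pdgfrb) and 0 fell, at 397 and 177 CPM, against 7.59 CPM. Col1a1 and Col3a1, with 4 and 2 control counts, entered the test only through the guide libraries, so their direction was fixed by the filter. Col1a1 made up 224 CPM of the sg1 sum. Col1a2 had 15 and 6 counts with the guides and 0 in the control, and Lum had 0 in all 3 libraries. The summed levels of these 2 lists were higher with both guides, as was Krt19, though the fibroblast sum was higher with sg1 and Krt19 with sg2. Aqp5 made up 57.3 CPM of the alveolar and club sum with sg2. Of the 3 genes of that list that rose, Aqp5 was higher with sg2, and Sftpb and Sftpa1 were higher with sg1. The part of the 2 lists in the Krt19 difference was not tested. Of the mesothelial markers, Msln had 9 and 8 counts with the guides and 4 in the control. Upk3b and Wt1 had 0 and 2 with the guides and 0 in the control. Lrrn4 was lower with both guides (20 and 28 counts, against 80 in the control) and did not pass. With Lrrn4, Krt7 and Krt19 the list of 6 had 3 tested and 1 that rose, Krt19 itself. The mesothelial sum of 273 and 277 CPM, against 411 CPM, came mostly from Krt7. Of 5 Merkel markers, which include Krt8, Krt18 and Krt20, 4 were tested and 1 rose, the channel gene Piezo2 (18.9 and 19.2 CPM with the guides, against 3.09 CPM). Atoh1 went the other way, with 0 and 2 counts with the guides and 15 in the control, and did not pass. It was tested only because of its control counts, which fixed its direction. The list's sum of 276 and 313 CPM, against 496 CPM, came mostly from Krt8 and Krt18. Of 4 endothelial markers 2 were tested and 1 rose, Kdr (9.59 and 24.3 CPM with the guides, against 0.208 CPM). With 9 control counts, Kdr entered the test only through the guide libraries, which favoured a rise. Kdr made up most of the list's sum with the guides (10.1 and 24.5 CPM, against 0.415 CPM in the control). Pecam1 had 21 and 1 counts with sg1 and sg2 and 7 in the control, Cdh5 had 1, 11 and 0, and Emcn 0, 0 and 2. Of 5 immune markers 2 were tested and 0 passed (0 with an unadjusted p under 0.05), at 10.1 and 6.45 CPM, against 4.93 CPM.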

How the data were processed

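RNA of the 3 libraries was sequenced by the submitters on an Illumina platform. The authors deposited a table with a raw read count and an RPKM value per gene and library. The genome build was mm10 and the tools named were HTSeq 0.6.1, TopHat2 2.0.12 and Bowtie2 2.2.3, per the submitters' processing notes. A list of down genes that the authors deposited gives the fold ratio of each guide over the control; for their list of up genes the ratio was computed from its RPKM values. Whether counting used the strand, and how reads with several matches were handled, is not given in the sources used here. Relative to the control library, count over RPKM was 1.03 times as large in sg1 and 1.18 times as large in sg2.

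Counts were tested as deposited with edgeR 4.0.16 in R 4.3.3 (TMM, filterByExpr, quasi-likelihood F test on the group, Benjamini-Hochberg over 15936 genes; 8587 genes were not tested). The fit had 1 residual degree of freedom, 11.5 prior degrees of freedom and a common coefficient of variation of 0.387. SEs were obtained by dividing each log2 fold change by the square root of its F. Per-guide log2 ratios used a prior count of 2. Counting intervals are exact binomial intervals of the 2 counts (scipy 1.17.1). Called means an adjusted p under 0.05. Alternatives were DESeq2 1.42.0 (size factors and Wald test), upper-quartile factors, no filter, a mean count of at least 50, limma 3.58.1 (voom, and trend on log2(RPKM + 1)), other prior counts and pseudocounts, and each guide left out. Positions are those RefSeq gives on GRCm38 (mm10), found for 24414 genes by their Entrez identifiers. The edgeR script was tested on simulated data.

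All 10 keratins are named. In each of the 4 lists (other keratins, linkers, transcription factors, other intermediate filaments) up to 4 genes that passed are named, and for the other keratins, where none passed, the 3 most abundant. The members and lists were chosen with earlier results of these data known. Lists are described by counts and medians, with no set test. Markers named from the cell type lists were picked after their values were seen.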

Additional observations from a re-analysis of the deposited data

How the results depend on the processing

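The log2 fold changes of the 7 keratins tested kept their sign in each of the 7 other analyses that gave a value, and with either guide left out. Krt8 passed without a filter on low counts (-1.21, adjusted p = 0.0462) and with the DESeq2 Wald test (-1.23, adjusted p = 0.0467), each of which then called 1 keratin lower in place of 0. Krt19 did not pass with limma-trend on log2(RPKM + 1) (3.62, adjusted p = 0.0676), which called 0 keratins higher; the pseudocount of 1 lies above its control RPKM. Subtracting the own chromosome's median gave -1.05 for Krt7, -1.55 for Krt8, -0.28 for Krt18 and -1.01 for Krt80. With each guide left out, Krt14 ranged from 4.12 to 7.06, values that depend on edgeR's prior count because the control had 0 counts.

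Per-guide log2 ratios moved with the pseudocount where the control was low. With log2(RPKM + 1) Krt19 had 3.14 with sg1 and 4.09 with sg2, and Krt80 -0.58 and -0.63. Krt14 with sg2 had 5.09 at a prior count of 0.5, 1.41 at 10, 0.28 with RPKM + 1 and 1.63 with RPKM + 0.1. Krt17 had 5.08 and 5.71 (sg1 and sg2) at a prior count of 0.5, 1.40 and 1.83 at 10, 0.30 and 0.44 with RPKM + 1, and 1.74 and 2.2 with RPKM + 0.1. The ratio of type II to type I sums in sg1, sg2 and the control was 3.47, 2.96 and 7.79 in CPM and 7.51, 4.28 and 481 without Krt7 and Krt18, the most abundant keratin of each type.

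Over all genes, limma-voom called 513 higher, against 1008 with edgeR, and limma-trend 27 higher and 4 lower; 511 genes were called lower without a filter and 180 at a mean count of at least 50, against 271. The linkers had 0 called higher at a mean count of at least 50, with limma-voom and with limma-trend, and 0 called lower in these 3 and with upper-quartile factors. The transcription factors had 2 called higher without a filter and with the DESeq2 Wald test, 0 higher with limma-voom and limma-trend, and 0 lower with limma-trend. The other intermediate filaments had 4 called higher without a filter and with the DESeq2 Wald test and 1 with limma-trend. The cause of these changes was not tested.

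Leaving out a guide leaves 1 library against 1 and gives no calls, and the control cannot be left out. No paired analysis was possible because the control has 1 library, so the groups share fewer than 2 replicate numbers. Krt14 and Krt17 could not be tested at a mean count of at least 50, and DESeq2 gave no adjusted p for Krt14. With 28 control counts the fold of Krt19 is known to counting error only within its interval, and Krt5, Krt15 and Krt20 were not detectable at this depth.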
